A study of Mus musculus with 63 samples.

Results

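Microdissected tumours that were not divided into clones were compared between 2 segment labels of the small intestine, SI10 and SI20. These are the 23 libraries of the 63 in the series whose title carries no clone letter: 12 are labelled SI10 (5 female, 7 male) and 11 are labelled SI20 (5 female, 6 male). All tumours arose in 2 C57BL/6 mice, 1 female and 1 male, of the genotype Apchet: Villin-creERT2 drives recombination in the intestinal epithelium, 1 *Apc* allele is floxed, and 1 Rosa26 allele carries the Confetti colour reporter. Both segments therefore share the loss of that allele after tamoxifen (4 mg by intraperitoneal injection) and the mutagen ENU (200 mg per kg, given 10 days later), and the mice were at least 8 weeks old when induced. Mouse and sex coincide, so they cannot be told apart, and the tumours of a mouse are the replicates: p-values measure the spread among tumours of these 2 animals. The labels do not say how far SI10 and SI20 lie from the stomach, and the question asked is which genes differed between tumours of the 2 segments.

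The small intestine is not uniform along its length. Its first stretch is known as the main site of iron uptake, where the ferric reductase *Cybrd1* and the importer *Slc11a2* act at the apical membrane, ferritin stores iron in the cell, and ferroportin (*Slc40a1*) exports it to the blood. Regional transcription factors mark position along the gut, and hormone cells, Brunner glands and bile acid transporters are each known to be concentrated in different stretches. Whether a tumour keeps such regional genes can be read from its RNA.

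Expression is given as the normalised counts deposited by the authors (reads per gene estimated by Salmon and scaled between libraries), and differences as SI10 minus SI20 on the scale log2(normalised count + 1), with the mouse as a covariate in limma and Benjamini-Hochberg adjusted p-values over all 16511 genes with a mean of at least 10. The summed values of a library ran from 26559102 to 45909885, and the estimated reads from 14715976 to 40055572, and neither differed between segments past the threshold (permutation p = 0.127 and 0.847, 100000 shuffles within mice). Ribosomal *Rn18s* took 0.561 to 19.3% of the summed values, with means of 6.95 ± 4.88% (SD, n = 12) in SI10 and 4.44 ± 5.81% (SD, n = 11) in SI20 (permutation p = 0.279). Epithelial markers were present in all libraries, with a summed level of 8 genes between 167971 and 710311. In these bulk libraries fewer cells of a type and less RNA per cell cannot be told apart.

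A library of the female mouse went against its label for part of the genes that differed between segments. Tumour 6, labelled SI20, held *Akp3* at 48714, against 102 to 513 in the other 4 female SI20 tumours and 1023 to 61024 in the 5 female SI10 tumours. For 17 of the 28 genes that differed between segments its value lay beyond all 4 other female SI20 tumours on the SI10 side. For 25 its value lay within the range of the female SI10 tumours, and for 11 within that of the other female SI20 tumours. Values of *Fth1*, *Papss2* and *Gm7457* were outside the SI10 range and within the SI20 range. Shares over all genes were not counted. The library labelled SI20 was kept under its label, and values without it are given beside the genes described tumour by tumour. Tumour 6 was picked by its values for these same genes. Larger differences and lower p-values without it follow from that choice, so they are descriptions and add no support.

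SI10 and SI20 tumours differed in 28 of 16511 genes (0.170% of those tested). Of these, 25 were higher in SI10 (0.151%) and 3 were higher in SI20 (0.0182%). The genes higher in SI10 included the brush-border phosphatase *Akp3*, 4 genes of iron transport and storage and the transcription factor *Pdx1*, whereas the transcription factor *Osr2* led the 3 genes higher in SI20. At an unadjusted p below 0.05 there were 1258 genes (7.62%). In the male mouse 23 of the 28 genes had no overlap between segments, compared with 0.497% of all genes tested. In the female mouse none of the 28 was free of overlap with tumour 6 included, and 11 were free of it without that library (1.03% of all genes tested). The 28 were called from these same tumours, so an excess over all genes in either mouse follows from that choice and adds no support. Without tumour 6, which was picked by its values for such genes, the number of genes called rose to 53 of 16515 (0.321%), among them all 28. Leaving out each of the 23 tumours in turn gave 5 calls (without female tumour 10 or male tumour 8 or 9) to 53 (without female tumour 6), and 5 genes passed in every such fit: *Akp3*, *Cybrd1*, *Fth1*, *Scarb1* and *Slc16a9*. The female mouse alone gave 0 calls in limma (509 genes at an unadjusted p below 0.05) and the male mouse alone gave 46. The series' design text counts 20 monoclonal tumours where the labels give 23 undivided ones, without saying which 3 are additional. Without male tumours 15, 17 and 18, the 3 numbered above 10, which leaves 20, no gene was called in limma (980 at an unadjusted p below 0.05), with *Akp3* at 4.95 and *Cybrd1* at 3.20 (both adjusted p = 0.104).

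**Figure D1:**
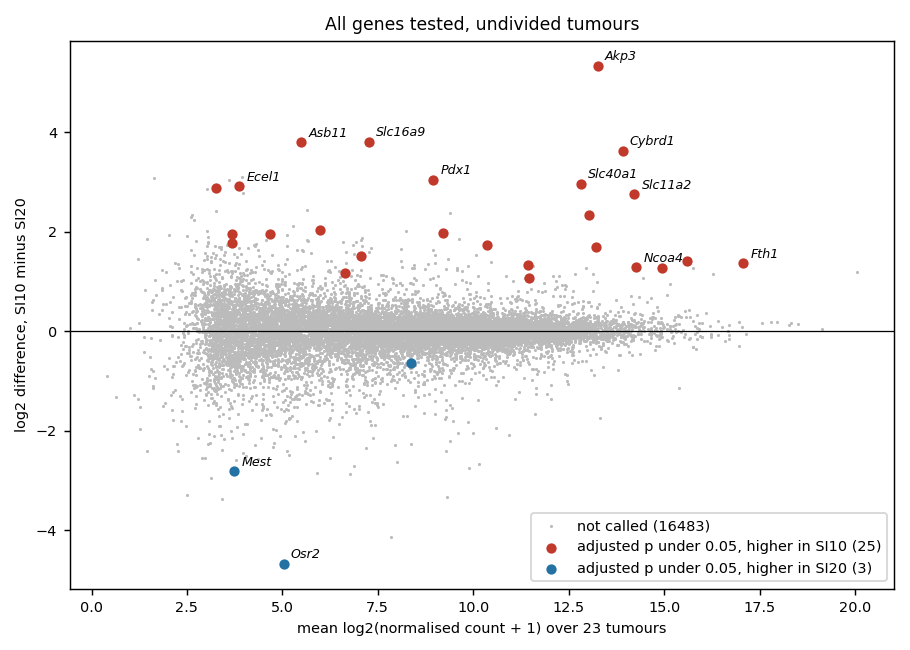
Log2 difference between SI10 and SI20 (y axis) against mean log2(normalised count + 1) over the 23 undivided tumours (x axis), 1 point per gene. The 25 genes higher in SI10 are red, the 3 genes higher in SI20 are blue, and *Akp3* and *Osr2* stand at the ends with differences of 5.34 and -4.67.

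**Figure D2:**
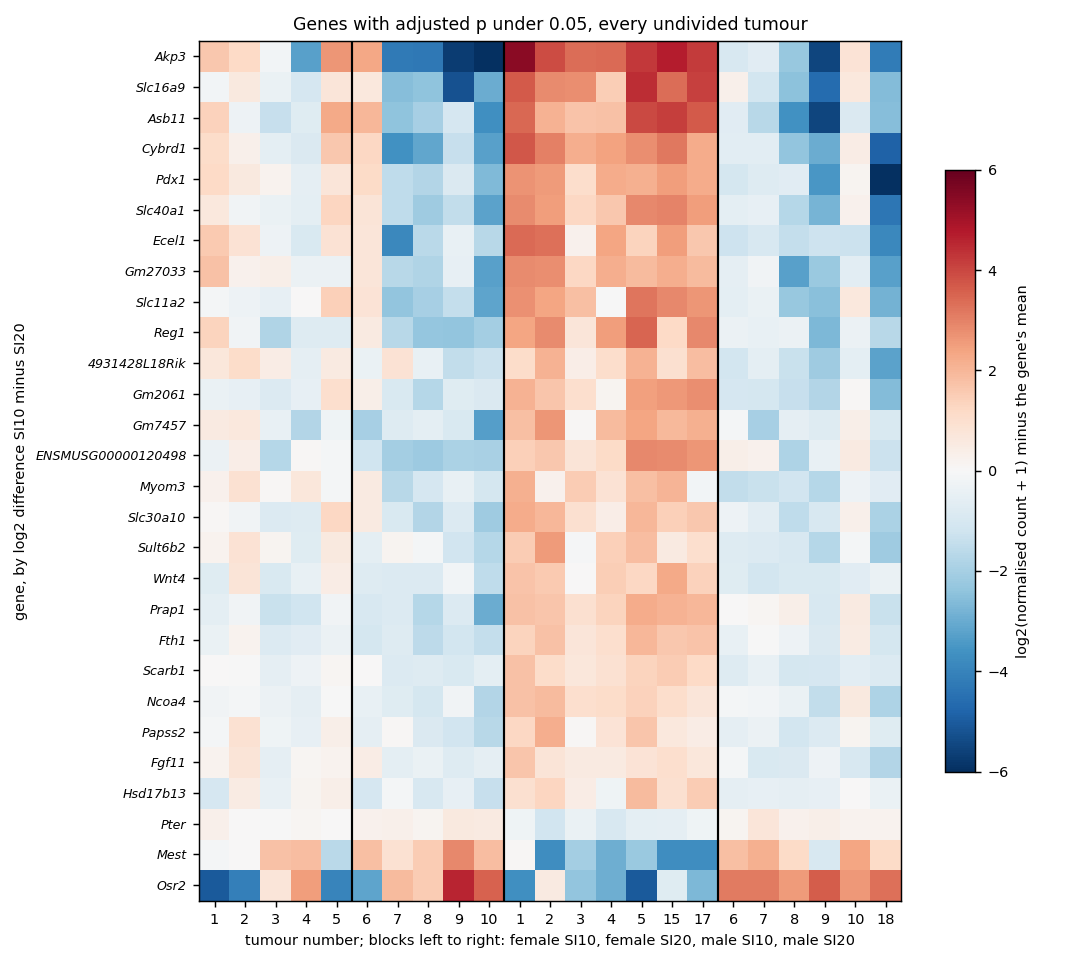
Log2(normalised count + 1) minus the gene's mean over 23 tumours, in colour, for the 28 genes that differed (rows, ordered by log2 difference) in every tumour (columns, numbered as in the labels). In the male SI10 block most cells of the upper 25 genes are red, and female tumour 6, the first column of the female SI20 block, resembles the SI10 columns for *Akp3*, *Slc16a9*, *Asb11*, *Cybrd1* and *Pdx1*.

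Of the 30 lists, that of iron, calcium and vitamin uptake held the most calls. Iron genes were not a list of their own. The lists were chosen with earlier results of these data known, so this ranking is a description. Of 24 tested genes of iron, calcium and vitamin uptake, 4 rose in SI10 (0.151% of all genes tested did), none fell and 20 did not pass; the median log2 difference was 0.46, compared with 0.00 over all genes. All 4 belong to iron: *Cybrd1*, which reduces ferric iron at the cell surface, *Slc11a2* (DMT1), which brings ferrous iron into the cell, *Fth1*, the ferritin heavy chain that stores it, and *Slc40a1* (ferroportin), the exporter. A further gene outside that list, *Ncoa4*, the receptor that delivers ferritin to autophagy, was also higher in SI10.

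Transcripts of *Fth1*, *Slc40a1* and *Slc11a2* carry an iron-responsive element, the hairpin by which iron regulatory proteins bind ferritin, ferroportin and importer mRNAs. It is printed here because it is the sequence that these genes share. The called iron genes *Cybrd1* and *Ncoa4* held no match to it. The search looked in untranslated regions of protein-coding Gencode M39 transcripts (GRCm39) for a loop CAGTGN whose sixth base is A, C or T. The loop had to be flanked by a stem with at least 4 of 5 base pairs (G with T counted as a pair). A C was required just before the 5′ arm of that stem, and whether this C is unpaired was not checked. The loop is in capitals within 30 bases, 5′ to 3′ on the transcript. *Fth1* and *Slc40a1* hold it in the 5′ UTR, at chr19:9960096-9960125 on the plus strand and chr1:45964624-45964653 on the minus strand, and *Slc11a2* in the 3′ UTR, at chr15:100293033-100293062 on the minus strand.
Fth1: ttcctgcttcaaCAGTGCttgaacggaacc
Slc40a1: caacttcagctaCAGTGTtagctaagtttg
Slc11a2: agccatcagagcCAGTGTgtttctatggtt
Ftl1: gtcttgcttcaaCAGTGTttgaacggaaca
Tfrc: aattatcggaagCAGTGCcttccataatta
Mest: aagaggccatttCAGTGTggatgtgacaga

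The light chain of ferritin, *Ftl1* (chr7:45109202-45109231, 5′ UTR, minus strand), and the transferrin receptor, *Tfrc*, whose 3′ UTR held 4 matches (the first at chr16:32450037-32450066, plus strand), share the element, and neither gene passed the test. The upper stem of *Slc11a2* held 4 pairs, those of the other genes printed held 5. The last sequence is the match in the 3′ UTR of *Mest* (chr6:30751780-30751809, plus strand), a gene higher in SI20. The same letters were found in UTRs of 1224 of 21594 protein-coding genes (5.67%), in 7.27% of those tested, and in 4 of 24 called genes that could be searched, so that a match is a description of sequence and not a measured site. *Slc11a2* also has transcripts without the element, and the values per gene do not separate them.

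Ferritin heavy chain was the gene with the lowest p in this group. Normalised counts of *Fth1* in female SI10 tumours 1 to 5 were 103826, 158323, 77246, 84586 and 106036. In female SI20 tumours 6 to 10 they were 67148, 80453, 45719, 64570 and 51140. Male tumours held 229885 to 554348 (median 427200, n = 7) in SI10 and 65099 to 191729 (median 106636, n = 6) in SI20. All 7 male SI10 tumours lay above all 6 male SI20 tumours, whereas in the female mouse the lowest SI10 value lay below the highest SI20 value. The log2 difference was 1.37 ± 0.22 (SE, adjusted p = 0.014), a 2.58-fold higher level in SI10, and 1.41 (adjusted p = 0.00377) without tumour 6.

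*Cybrd1* differed more. Its normalised counts were 32722, 19054, 10300, 8486 and 47674 in female SI10 tumours 1 to 5 and 36209, 1262, 1752, 5912 and 1614 in female SI20 tumours 6 to 10. The male SI10 tumours ranged from 70655 to 203187 (median 108325, n = 7) and the male SI20 tumours from 540.4 to 21097 (median 6454, n = 6). Apart from tumour 6, every SI20 tumour of a mouse was below every SI10 tumour of that mouse. The log2 difference was 3.63 ± 0.60 (SE, adjusted p = 0.014), or 12.4-fold, and 4.03 (adjusted p = 0.0004) without tumour 6.

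The importer and the exporter followed the same order of segments. *Slc11a2* ranged from 13381 to 50625 (median 17676, n = 5) in female SI10 and from 2111 to 34024 (median 4720, n = 5) in female SI20 tumours, the highest of which was tumour 6. Its male values ran from 18777 to 174755 (median 118680, n = 7) in SI10 and from 2699 to 29653 (median 8288, n = 6) in SI20, and overlapped through male SI10 tumour 4, the lowest of its group. The log2 difference of *Slc11a2* was 2.76 ± 0.50 (SE, adjusted p = 0.0221), and 3.06 (adjusted p = 0.00111) without tumour 6. For *Slc40a1* the female SI10 values were 11234, 6214, 5400, 4719 and 17464, and the female SI20 values were 12367, 2524, 1633, 2557 and 779.5. Male tumours ranged from 17257 to 56550 (median 41558, n = 7) in SI10 and from 351 to 8489 (median 3544, n = 6) in SI20, without overlap. The log2 difference of *Slc40a1* was 2.96 ± 0.52 (SE, adjusted p = 0.0214), and 3.27 (adjusted p = 0.00111) without tumour 6.

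*Ncoa4*, outside the list, was at 13542 to 73544 (median 36096, n = 12) in SI10 and at 5541 to 30156 (median 14336, n = 11) in SI20. Its difference of 1.29 ± 0.27 (SE, adjusted p = 0.0421) was called. Other members of the list held values that did not pass. *Heph*, the ferroxidase that works with ferroportin, differed by 0.18 ± 0.19 (SE, adjusted p = 0.839), *Ftl1* by 0.31 ± 0.12 (SE, adjusted p = 0.542) and *Tfrc* by -0.48 ± 0.23 (SE, adjusted p = 0.655). The calcium channel *Trpv6* differed by 1.87 ± 1.12 (SE, adjusted p = 0.709) and the calcium-binding *S100g* by 1.07 ± 0.67 (SE, adjusted p = 0.72). *S100g* was higher in SI10 in the male mouse alone, with mean differences of -0.29 in the female and 2.13 in the male mouse. The folate carriers *Slc46a1* and *Slc19a1* differed by 1.01 ± 0.27 (SE, adjusted p = 0.193) and 0.97 ± 0.23 (SE, adjusted p = 0.0926). In the other direction stood the phosphate carrier *Slc34a2*, at -2.62 ± 0.67 (SE, adjusted p = 0.158), and the vitamin C carrier *Slc23a1*, at -2.50 ± 0.77 (SE, adjusted p = 0.341). Without tumour 6, *Slc19a1* was at 1.07 (adjusted p = 0.0239) and *Slc34a2* at -3.04 (adjusted p = 0.0164). That library was left out after its values were seen, so these 2 are not counted as calls.

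**Figure D3:**
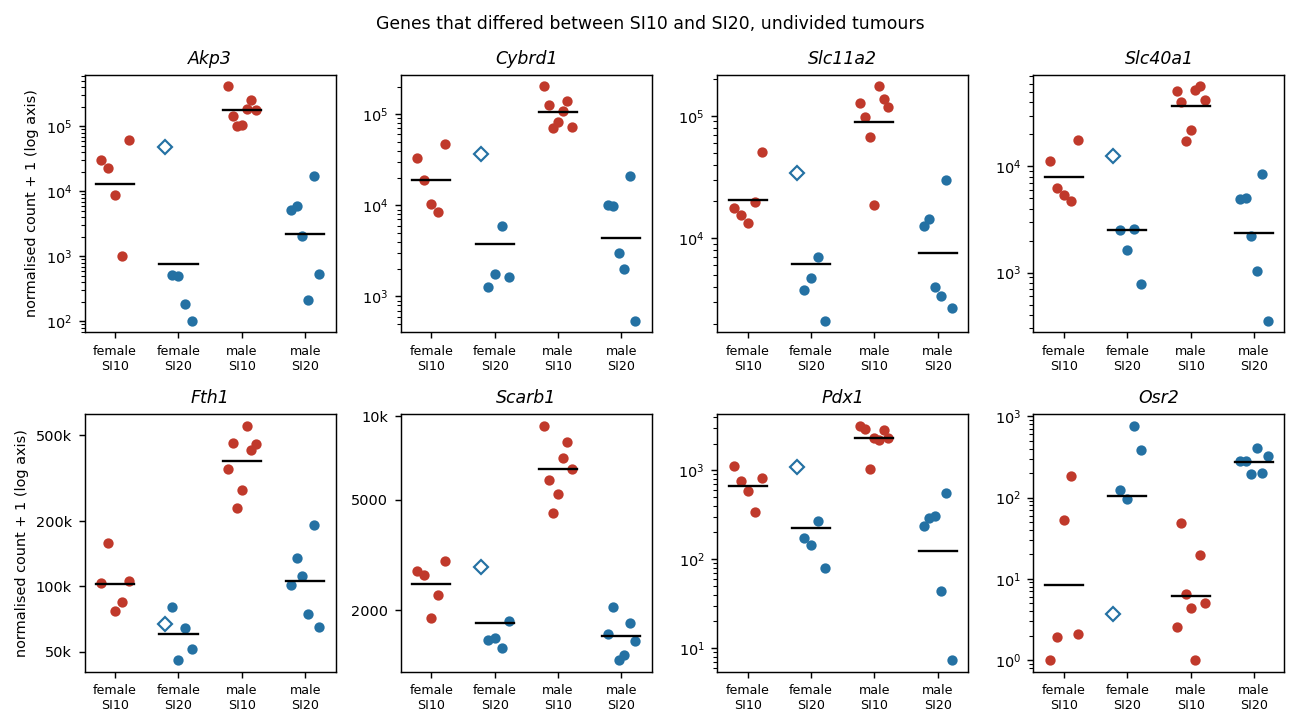
Normalised count + 1 (y axis, log scale) of 8 genes in every undivided tumour, by mouse and segment (x axis), with SI10 red and SI20 blue. Points are tumours, bars are means of the log2 values, and the open diamond is female tumour 6: male SI10 tumours lie above male SI20 tumours for *Akp3*, *Cybrd1*, *Slc40a1*, *Fth1*, *Scarb1* and *Pdx1*, and below them for *Osr2*.

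The largest difference of all genes was that of *Akp3*, an intestinal alkaline phosphatase of the brush border known from the duodenum. Its normalised counts in female SI10 tumours were 30571, 22571, 8697, 1023 and 61024. In female SI20 tumours they were 48714, 513, 504, 187 and 102. Male tumours ranged from 101075 to 415031 (median 177523, n = 7) in SI10 and from 216 to 17529 (median 3570, n = 6) in SI20. Female tumour 4 was the lowest of the SI10 tumours and still above the 4 female SI20 tumours other than tumour 6. The log2 difference was 5.34 ± 0.90 (SE, adjusted p = 0.014), or 40.6-fold, and 6.02 (adjusted p = 0.000155) without tumour 6.

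Further called genes, grouped here after their values were seen, encode transporters, enzymes and secreted or lipid droplet proteins. *Slc16a9*, a monocarboxylate transporter family member linked to carnitine efflux, was at 136, 234, 116, 75.5 and 255 in female SI10 tumours. Its female SI20 values were 239, 25.4, 27.6, 3.13 and 18.4. Its male values ran from 428 to 3293 (median 1578, n = 7) in SI10 and from 5.28 to 236 (median 49.8, n = 6) in SI20, giving a log2 difference of 3.82 ± 0.63 (SE, adjusted p = 0.014), and 4.21 (adjusted p = 0.000451) without tumour 6. *Slc30a10*, the manganese exporter, rose from 295 to 1891 (median 701, n = 11) in SI20 to 754 to 6053 (median 2850, n = 12) in SI10, a log2 difference of 1.73 ± 0.34 (SE, adjusted p = 0.0313). *Papss2*, which makes the active sulfate donor PAPS, differed by 1.28 ± 0.25 (SE, adjusted p = 0.0278), and *Sult6b2*, a sulfotransferase, by 1.71 ± 0.32 (SE, adjusted p = 0.0278). *Prap1*, a secreted protein that binds lipid particles, differed by 1.42 ± 0.29 (SE, adjusted p = 0.0401), and *Hsd17b13*, a lipid droplet protein, by 1.08 ± 0.23 (SE, adjusted p = 0.0485).

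Of 29 tested genes of lipid uptake and export only *Scarb1*, the scavenger receptor for lipoproteins, carotenoids and cholesterol, passed. *Scarb1* was at 2769, 2686, 1874, 2261 and 3010 in female SI10 tumours and at 2851, 1562, 1592, 1460 and 1825 in female SI20 tumours. In the male mouse the values were 4470 to 9243 (median 6421, n = 7) in SI10 and 1324 to 2060 (median 1599, n = 6) in SI20. The log2 difference of 1.33 ± 0.20 (SE, adjusted p = 0.014) had the lowest p of all genes, and was 1.44 (adjusted p = 0.0004) without tumour 6. *Scarb1* also had the lowest p for a difference between mice, by which the male exceeded the female difference by 1.54 (interaction adjusted p = 0.118). The median of the lipid list was 0.00, and the apolipoprotein *Apoa4* was at 0.15 ± 0.33 (SE).

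Among secreted lectins of the Reg family, 1 of 5 tested genes passed. *Reg1*, a regenerating-family protein known from the pancreas and the proximal gut, was at 21335, 7301, 2403, 4865 and 4913 in female SI10 and at 12083, 2633, 1677, 1607 and 2042 in female SI20 tumours. Male values of *Reg1* ranged from 13829 to 93446 (median 47282, n = 7) in SI10 and from 1273 to 6573 (median 6290, n = 6) in SI20, with no overlap. The log2 difference was 2.34 ± 0.46 (SE, adjusted p = 0.0313), and 2.61 (adjusted p = 0.00246) without tumour 6. The antibacterial lectins *Reg3b* and *Reg3g* differed by 0.01 ± 0.67 (SE) and 0.01 ± 0.71 (SE). Their signs turned under other scalings. Over 6 tested genes of pancreatic acinar cells the median difference was -0.15 and none passed; of the 27 acinar genes, 12 are not in the table analysed here.

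Both *Pdx1* and *Osr2*, transcription factors of the regional list, differed, in opposite directions. *Pdx1*, which is required for the pancreas and is known to mark the duodenum, was at 1131, 754, 579.7, 336 and 828 in female SI10 tumours. In female SI20 tumours it was at 1084, 173, 144, 267 and 78.0. Male tumours ranged from 1036 to 3189 (median 2338, n = 7) in SI10 and from 6.33 to 555 (median 262, n = 6) in SI20. The log2 difference of *Pdx1* was 3.05 ± 0.61 (SE, adjusted p = 0.0313), or 8.3-fold, with no overlap in the male mouse, and 3.36 (adjusted p = 0.00479) without tumour 6. The uncalled antisense gene *Plut* overlaps *Pdx1* by 1563 bases and differed by 1.66 ± 0.41 (SE, adjusted p = 0.136).

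*Osr2*, a zinc finger factor of the odd-skipped family, showed the reverse. Its normalised counts were 0, 0.932, 52.5, 183 and 1.11 in female SI10 tumours 1 to 5 and 2.66, 121, 93.7, 769 and 379 in female SI20 tumours 6 to 10. Male tumours held 0 to 46.9 (median 4.08, n = 7) in SI10 and 192 to 410.1 (median 281, n = 6) in SI20. The log2 difference was -4.67 ± 0.90 (SE, adjusted p = 0.0278), or 25.5-fold higher in SI20, and -5.22 (adjusted p = 0.00188) without tumour 6. Female SI10 tumours 3 and 4 had the highest *Osr2* of the female SI10 tumours and also the lowest *Pdx1*, and tumour 6 had the lowest *Osr2* of the SI20 tumours and the highest *Pdx1*.

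No other regional factor passed. Of 36 tested genes of this list 34 did not pass, and the median difference was -0.01. *Gata4*, a factor of the jejunum and duodenum, was at 2746 to 7482 (median 5359, n = 12) in SI10 and at 2012 to 5538 (median 5064, n = 11) in SI20, a difference of 0.11 ± 0.16 (SE). The intestinal factors *Cdx1*, *Cdx2* and *Hnf4a* differed by 0.06 ± 0.25 (SE), -0.07 ± 0.16 (SE) and 0.01 ± 0.12 (SE), and *Onecut2* by 0.13 ± 0.29 (SE). The signs of *Cdx1*, *Cdx2*, *Gata4*, *Hnf4a* and *Onecut2* each turned in at least 1 alternative. Of 9 genes of ileal bile acid handling 6 were tested and none passed, 5 of the 6 differences being positive, with a median of 0.28 and 1 unadjusted p below 0.05. The 9 genes summed to 4950 to 27823 in SI10 and 5635 to 15207 in SI20. Within that list *Fabp6*, the ileal bile acid binding protein, ran from 0 to 23.5 (median 2.86, n = 12) in SI10 and from 0 to 17.5 (median 2.48, n = 11) in SI20, and *Fgf15* reached at most 27.8. Both fell below the mean of 10 needed for a test. The ileal bile acid importer *Slc10a2* was at 25.8 to 360.4 (median 164, n = 12) in SI10 and at 16.4 to 401 (median 217, n = 11) in SI20, and differed by -0.23 ± 0.44 (SE, adjusted p = 0.912).

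Further genes that differed have roles outside absorption. *Wnt4*, a secreted WNT ligand, was at 71.5 to 655 (median 272, n = 12) in SI10 and at 45.1 to 121 (median 75.7, n = 11) in SI20, a difference of 1.51 ± 0.28 (SE, adjusted p = 0.0221). *Asb11*, a component of ubiquitin ligases, differed by 3.80 ± 0.74 (SE, adjusted p = 0.0313), and ranged from 16.1 to 798 (median 170.2, n = 12) in SI10 and from 0 to 179 (median 10.3, n = 11) in SI20. *Ecel1*, an endopeptidase known from neurons, ran from 6.85 to 152 (median 39.2, n = 12) in SI10 and from 0 to 23.5 (median 4.95, n = 11) in SI20, and differed by 2.91 ± 0.53 (SE, adjusted p = 0.0221). *Myom3*, a sarcomere protein, and *Fgf11*, an intracellular FGF, differed by 1.78 ± 0.34 (SE, adjusted p = 0.0278) and 1.18 ± 0.23 (SE, adjusted p = 0.0313). Besides *Osr2*, the genes higher in SI20 were *Mest*, an imprinted hydrolase, at 0 to 47.8 (median 2.77, n = 12) in SI10 and 5.85 to 96.5 (median 45.1, n = 11) in SI20, and *Pter*, at 148 to 408 (median 277, n = 12) and 369 to 554 (median 396, n = 11). Their log2 differences were -2.82 ± 0.56 (SE, adjusted p = 0.0313) and -0.64 ± 0.13 (SE, adjusted p = 0.036).

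Of the 28 called genes, 5 have a model name or no symbol, and some stand beside called genes on the chromosome. Within 50 kb of each other lay 4 pairs of called genes, which hold 8 of the 28. The other tested genes within 50 kb of a called gene, 49 in number, were not called. Over all genes tested 0.170% were called. On chromosome 1 of GRCm39, *Akp3* (87052695 to 87055634) and *Ecel1* (87075377 to 87084243) are 19742 bases apart on opposite strands. *Gm27033* lies 4871 bases beyond the end of *Pdx1* on chromosome 5 and differed by 2.88 ± 0.51 (SE, adjusted p = 0.0214), with 6.41 to 67.1 (median 32.9, n = 12) in SI10 and 0 to 14.6 (median 2.04, n = 11) in SI20. *Gm7457* and *Sult6b2* on chromosome 6 are 9728 bases apart, and *Gm7457* differed by 1.96 ± 0.40 (SE, adjusted p = 0.036). *Gm2061* overlaps *Slc30a10* by 793 bases on the other strand and differed by 1.99 ± 0.42 (SE, adjusted p = 0.0485). Whether the counting used the strand is not given in the sources used here, so reads in that overlap, or in that of *Pdx1* and *Plut*, cannot be told apart. A further neighbour of *Akp3*, the alkaline phosphatase *Alpi*, differed by 1.27 ± 0.35 (SE, adjusted p = 0.195), and *Alppl2* by -0.08 ± 0.44 (SE, adjusted p = 0.975). Over all 49 tested genes within 50 kb of a called gene that were not called themselves, the median difference was 0.018. Of these 49, 31 were higher in SI10 (50.1% of all genes tested were), and whether this departs from that share was not tested.

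Gut hormones were set side by side because their cells are spread unevenly along the intestine. Of 26 tested genes of enteroendocrine hormones none passed, with 11 positive differences and 1 negative at an unadjusted p below 0.05 (4.14% and 3.48% of all genes tested) and a median difference of 0.48. Secretin (*Sct*) had a median of 503 in SI10 and 249.8 in SI20, a difference of 0.98 ± 0.26 (SE, adjusted p = 0.188). *Gip*, an incretin, differed by 0.98 ± 0.34 (SE, adjusted p = 0.481), *Cck* by 0.87 ± 0.30 (SE, adjusted p = 0.481) and ghrelin (*Ghrl*) by 0.77 ± 0.29 (SE, adjusted p = 0.545). Of hormones known from more distal gut, *Pyy* differed by 1.22 ± 0.53 (SE, adjusted p = 0.603), and *Gcg* and *Nts*, with the opposite sign, by -1.30 ± 0.60 (SE, adjusted p = 0.637) and -1.74 ± 0.96 (SE, adjusted p = 0.682). Without tumour 6, somatostatin (*Sst*) passed, at 1.46 (adjusted p = 0.0254).

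Digestive and secretory genes gave no calls. Among 28 genes of sugar and peptide uptake the lactase *Lct* differed by -2.08 ± 1.06 (SE, adjusted p = 0.667) and the median was 0.01; the enteropeptidase *Tmprss15* passed without tumour 6, at 2.60 (adjusted p = 0.0419). Of 41 tested genes of xenobiotic metabolism 31 had a positive difference (50.1% of all genes tested did) and 12 of these an unadjusted p below 0.05 (4.14%), with a median of 0.33. Goblet cell genes had a median of -0.28, with the mucin *Muc2* at -0.78 ± 0.35 (SE, adjusted p = 0.613). In the Paneth cell list 1 of 28 genes had a positive difference and 6 of the others an unadjusted p below 0.05 (3.48% of all genes tested, in that direction), with a median of -0.92, and *Lyz1* differed by -0.19 ± 0.36 (SE, adjusted p = 0.912). The 18 tested genes of Brunner gland and stomach had a median of -0.74 and summed levels of 10678 to 92165 in SI10 and 6296 to 113950 in SI20. *Muc6* was not analysed here.

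Stem cell, growth and non-epithelial lists were also without calls. The crypt stem cell and WNT target list had a median of -0.33 over 35 genes, with *Lgr5* at -0.83 ± 0.47 (SE, adjusted p = 0.688), and its difference was 0.62 in the female and -1.96 in the male mouse. Of 40 genes of replication and mitosis 1 had a positive difference (50.1% of all genes) and 10 of the others an unadjusted p below 0.05 (3.48%), with a median of -0.30. Of 31 genes of T cells and cytotoxic lymphocytes 30 had a positive difference, with a median of 0.66, 12 of them at an unadjusted p below 0.05 (all genes: 50.1% positive, 4.14% at such a p), and the summed level was 2088 to 12354 in SI10 and 1835 to 5074 in SI20. MHC class II genes had a median of 0.62, interferon response and MHC class I genes one of 0.38, and fibroblast and collagen genes one of -0.74. Of the 30 lists, 4 held called genes and 26 held none, with medians between -0.92 and 0.66, and these medians are descriptions. The 9 enterocyte markers summed to 286850 to 1965150 in SI10 and 228312 to 1540350 in SI20, and the part of any of these cell types in the calls was not tested.

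**Figure D4:**
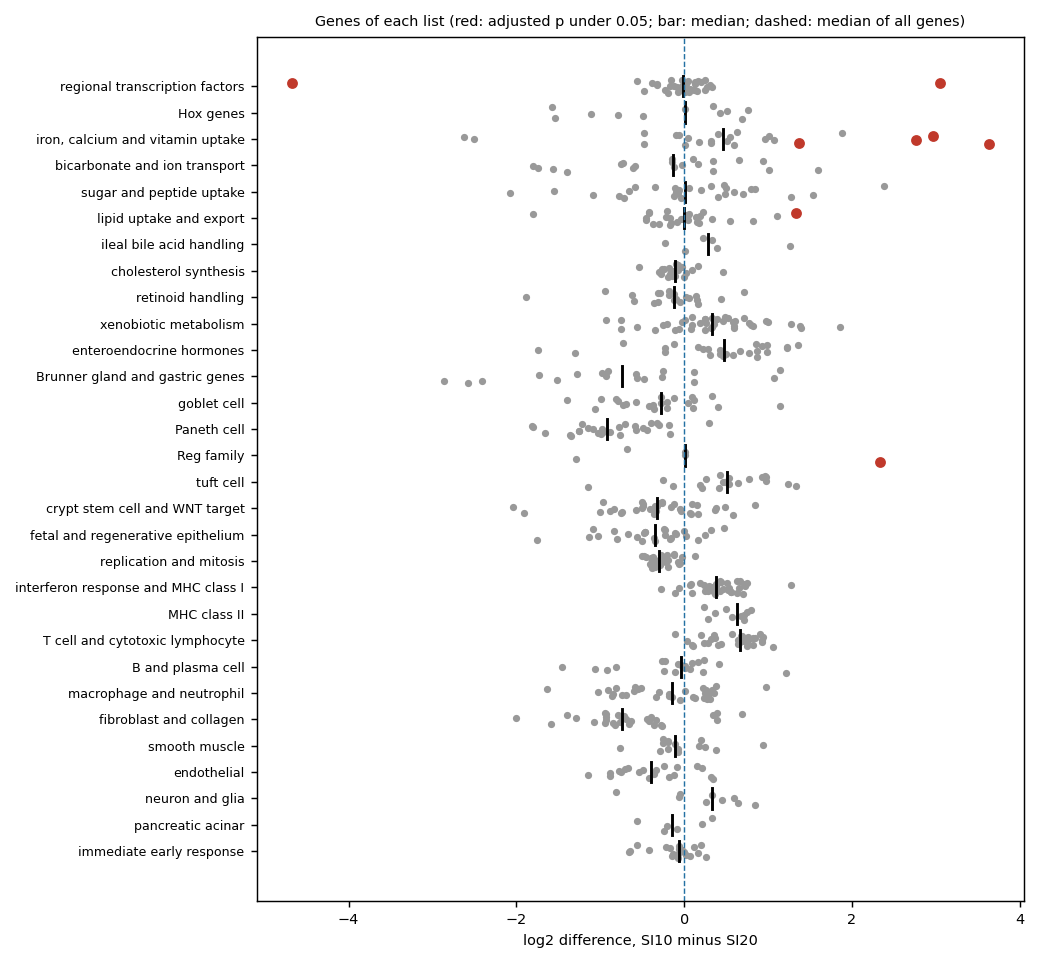
Log2 difference SI10 minus SI20 (x axis) of each tested gene in 30 lists (y axis), with list medians as bars, called genes in red and the median of all genes as a dashed line. The 8 red points are *Pdx1*, *Osr2*, *Cybrd1*, *Slc11a2*, *Slc40a1*, *Fth1*, *Scarb1* and *Reg1* in 4 lists.

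The size of the segment difference was set against the mouse. All 28 genes had the same sign in both mice and a larger difference in the male mouse. They were called in a fit of both mice together, so agreement of sign partly follows from that choice. Neither share was counted over all genes. No gene of 16511 passed the test of the interaction in limma (870 at an unadjusted p below 0.05, or 5.27%, among them 17 of the 28). *Pdx1* differed by 1.58 in the female and 4.19 in the male mouse (interaction adjusted p = 0.868), *Cybrd1* by 2.35 in the female and 4.62 in the male mouse (adjusted p = 0.935) and *Osr2* by -3.65 in the female and -5.47 in the male mouse (adjusted p = 0.9998). Leaving out tumour 6 raised the female difference of 25 of the 28 genes, to 5.61 for *Akp3*, 3.16 for *Cybrd1* and 2.15 for *Pdx1*. Because tumour 6 was picked for its values on the SI10 side for such genes, this rise is a description only.

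The same contrast was measured in other tumours of these 2 mice, those divided into a pair of clones. After the 2 clones of a tumour were averaged on the log2 scale, 7 divided SI10 tumours and 10 divided SI20 tumours could be compared, leaving out 2 tumours of SI30 and 1 whose clones carry different segment labels. There, 46 of 16436 genes passed (0.280%), 16 of them higher in SI10 (0.0973%), and 2358 had an unadjusted p below 0.05 (14.3%). Of the 28 genes, 26 were tested in the divided tumours: all 26 had the same sign, 21 had an unadjusted p below 0.05 (14.3% of all genes tested there) and 10 passed. The 10 that passed were *Akp3*, *Ecel1*, *Fth1*, *Osr2*, *Papss2*, *Pdx1*, *Reg1*, *Scarb1*, *Slc16a9* and *Slc40a1*, which is 35.7% of the calls in undivided and 21.7% of those in divided tumours. How many of all genes had the same sign in both kinds of tumour was not counted.

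*Pdx1* in divided tumours ranged from 499 to 1405 (median 741, n = 7) in SI10 and from 74.2 to 217 (median 143, n = 10) in SI20, with no overlap and a log2 difference of 2.58 ± 0.25 (SE, adjusted p = 0.000103). *Osr2* ranged from 3.01 to 88.0 (median 16.3, n = 7) in SI10 and from 210.0 to 763 (median 551, n = 10) in SI20, again with no overlap, and differed by -4.64 ± 0.51 (SE, adjusted p = 0.000397). These are the 2 regional factors that differed in undivided tumours. *Akp3* differed by 5.36 ± 0.94 (SE, adjusted p = 0.0192), *Fth1* by 0.89 ± 0.17 (SE, adjusted p = 0.0299) and *Slc40a1* by 2.18 ± 0.44 (SE, adjusted p = 0.0423). *Cybrd1* and *Slc11a2* had differences of 2.49 ± 0.62 (SE, adjusted p = 0.126) and 2.54 ± 0.62 (SE, adjusted p = 0.121), and did not pass. Some estimates were smaller in divided tumours: *Mest* was at -0.41 ± 0.53 (SE, adjusted p = 0.722), *Wnt4* at 0.49 ± 0.30 (SE, adjusted p = 0.436), *Myom3* at 0.42 ± 0.31 (SE, adjusted p = 0.523) and *Fgf11* at 0.10 ± 0.28 (SE, adjusted p = 0.887). The test of undivided against divided tumours called no gene (302 at an unadjusted p below 0.05, or 1.83%, among them these 4), so no difference between the 2 kinds of tumour passed. Conversely, all 46 genes called in divided tumours had the same sign in undivided tumours, a share that was not counted over all genes. Of the 46, 36 had an unadjusted p below 0.05 there (7.62% of all genes tested did). In the iron, calcium and vitamin list the divided tumours also called *Slc34a2* at -2.65 ± 0.30 (SE, adjusted p = 0.000403), *Slc23a1* at -3.20 ± 0.39 (SE, adjusted p = 0.00106) and *Slc19a1* at 0.82 ± 0.11 (SE, adjusted p = 0.0026).

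**Figure D5:**
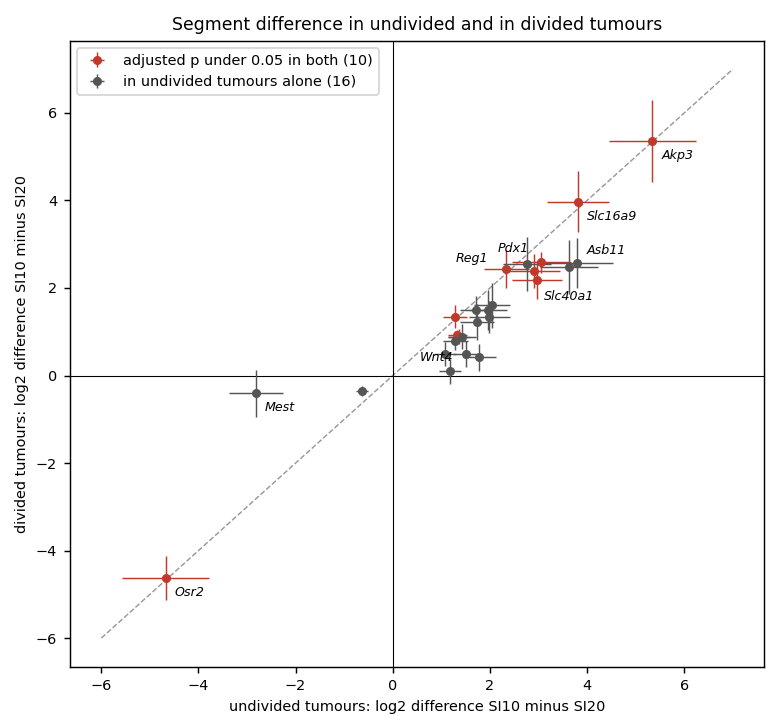
Log2 difference SI10 minus SI20 in undivided (x axis) and divided tumours (y axis) for the 26 genes tested in both, with standard errors as bars and equality as a dashed line. The 10 genes called in both are red, and *Mest*, at -2.82 and -0.41, lies farthest from the line among genes higher in SI20.

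Segment was a minor part of the variation among the 23 tumours. The first principal component held 24.7% of the variance, of which the mouse accounted for 39.3% (permutation p = 0.0006, mouse shuffled within segments) and the segment for 10.9% (permutation p = 0.0517, segment shuffled within mice). The fourth component, with 6.15% of the variance, was the one on which segments differed most, with 30.2% by segment (permutation p = 0.00208) and 0.0414% by mouse. With every gene scaled to unit variance this did not hold: the fourth component was 0.0939% by segment (permutation p = 0.886), and of the 4 components the first then had the largest share, at 9.19% (permutation p = 0.0337). Without that scaling, the share by segment was 0.514% on the second and 1.87% on the third component (p = 0.698 and 0.539, permutation test). These are 4 components with 1 test of the segment each, and the p-values are not adjusted.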

How the data were processed

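Small intestinal tumours of 2 mice were profiled by stranded, polyadenylated RNA sequencing. The authors deposited a normalised signal for each gene, for which they trimmed reads with Trimmomatic 0.39, estimated counts with Salmon 1.9.0 against Gencode M30 (GRCm39) and normalised them between libraries, with DESeq2 named for the analysis. How they were scaled is not given further. STAR 2.7.7a, Picard 2.27.3 and FastQC 0.11.9 were used for quality control. Values are not whole, so depth was estimated from the most frequent small value, taken as 1 read (kernel density on log2 values of at most 4, bandwidth 0.05), and gives no interval for single values. The table holds 24766 genes, 678 without a symbol.

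Groups were taken from sample titles and segment labels. Genes with a mean of at least 10 were tested with limma 3.58.1 (R 4.3.3, eBayes with trend) on log2(value + 1), with mouse as covariate, which understates changes of low genes; adjusted p-values are Benjamini-Hochberg at 0.05. Single values were tested with two-sided permutation tests (100000 shuffles within mice, Python 3.11.15, numpy 2.4.6). The members and the 30 gene lists were chosen with earlier results of these data known. Genes named are the 12 with the largest change each way among called genes with a symbol and the same sign in both mice, called members of lists (up to 5 each way) and a set of regional genes; other genes were named after their values were seen. Alternatives covered the pseudocount (0.1 and 5), the filter, scaling, the covariate, the variance model, each mouse alone and each tumour left out. The fit was also run on simulated data, with independent normal noise for each gene around the mouse means. Correlation between genes and aberrant libraries were not simulated, and the outcome is not reported here.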

Additional observations from a re-analysis of the deposited data

Results flagged for a closer look

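Within each mouse and segment, the highest and the lowest log2 value of each of the 28 called genes was set against the others by Dixon's criterion, which chance exceeds in about 1 in 20 groups. Of 112 groups, 12 held such a value. Of these, 2 belonged to female tumour 6, labelled SI20: *Akp3* at 48714 (102 to 513 in the others of its group, n = 5) and *Reg1* at 12083 (1607 to 2633 in the others of its group, n = 5). Female SI10 tumour 5 stood above its group for *Slc11a2*, at 50625 (13381 to 19591 in the others of its group, n = 5), and for *Gm2061*, at 1174 (332 to 445 in the others of its group, n = 5).

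In the male SI10 tumours, tumour 3 stood below its group for *Pdx1*, at 1036 (2166 to 3189 in the others of its group, n = 7), and for *Gm7457*, at 25.7 (90.1 to 160.4 in the others of its group, n = 7). Tumour 4 was low for *Slc11a2*, at 18777 (66685 to 174755 in the others of its group, n = 7), and tumour 1 was high for *Fgf11*, at 314 (144 to 199.5 in the others of its group, n = 7). In the male SI20 tumours, *Ecel1* was listed at 0 (4.51 to 6.42 in the others of its group, n = 6) in tumour 18, *Mest* was low in tumour 9, at 5.85 (28.7 to 68.3 in the others of its group, n = 6), *Pter* was high in tumour 7, at 554 (369 to 421 in the others of its group, n = 6), and *Hsd17b13* was high in tumour 10, at 2879 (1920 to 2173 in the others of its group, n = 6).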

How the results depend on the processing

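All 28 called genes kept their sign in every alternative in which they were tested: 36 for 22 of them, 35 for *Ecel1*, *Gm7457*, *Mest* and *Myom3*, and 34 for *Gm27033* and ENSMUSG00000120498, which the filter on low values removed from the others. The 28 calls (25 and 3) became 18 with a pseudocount of 0.1 (1 higher in SI20) and 15 without the mouse covariate (14 and 1). With quantile normalisation and with equal sums, 5 genes were higher in SI20. The male mouse alone gave 46 calls (10 higher in SI20), against 0 in the female mouse alone and 0 without male tumours 15, 17 and 18 (limma, 980 genes at an unadjusted p below 0.05, lowest adjusted p among the genes named 0.104, *Akp3* at 4.95 and *Cybrd1* at 3.20). Leaving out each tumour gave 5 to 53 calls, 5 to 43 higher in SI10 and 0 to 10 higher in SI20. Counts beyond 1.5 times 28 came without female tumours 6 (53), 2 (10), 5 (16) and 10 (5) and without male tumours 1 (12), 2 (16), 5 (12), 15 (17), 17 (15), 6 (9), 7 (11), 8 (5), 9 (5) and 18 (16). Equal sums moved the median of all genes to -0.107.

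Of genes that were not called, signs turned with quantile normalisation (*Hnf4a* -0.0892, *Reg3g* -0.14, *Reg3b* -0.13), equal sums (*Hnf4a* -0.10, *Cdx1* -0.0514, *Reg3g* -0.10, *Reg3b* -0.10), no covariate (*Reg3g* -0.0942, *Reg3b* -0.0903), the female mouse alone (*Hnf4a* -0.18, *Lgr5* 0.62, *Gata4* -0.00085, *Cdx1* -0.20, *S100g* -0.29, *Lyz1* 0.23) and the male mouse alone (*Cdx2* 0.19, *Reg3g* and *Reg3b* -0.14). Leaving out single tumours gave *Apoa4* -0.0061 to 0.26, *Cdx1* -0.078 to 0.16, *Cdx2* -0.13 to 0.0031, *Hnf4a* -0.056 to 0.069, *Lyz1* -0.36 to 0.0084, *Onecut2* -0.011 to 0.27, *Reg3b* -0.30 to 0.49 and *Reg3g* -0.28 to 0.53. Among called genes, *Gm2061* and *Hsd17b13* missed the threshold most often, each in 26 alternatives.

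Divided tumours gave 0 calls in the female and 6 in the male mouse alone, and 125 with each clone as a library and the tumour as a correlated block. With unit variance the first component was 9.19% by segment (permutation p = 0.0337) and the fourth 0.0939% (permutation p = 0.886). The interaction, the comparison with divided tumours and the components were also run without tumour 6, chosen after its values were seen, with 0, 0 and no changed call. In 100000 shuffles within mice the permutation p-values of the called genes were 1e-05, the smallest possible, to 0.00055. These genes were picked by their p in the same libraries, so low permutation p-values follow from that choice and add no support. The cause of the changes between alternatives was not tested. No paired analysis was possible because the labels give no replicate number shared between segments.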
